A study of Sus scrofa with 2 samples.

Results

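Caveolae are small flask-shaped pits of the plasma membrane that are abundant in smooth muscle, endothelium and fat. Caveolins, which sit in the inner leaflet of the membrane, build them together with cavins, which form a coat on the cytosolic side. Other proteins bend the membrane or hold the neck of the pit, and in stretched cells caveolae can flatten and release membrane. These roles are known mainly from human and mouse cells.

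Expression of 10 caveola genes was examined in PSI, a line of smooth muscle cells from pig ileum. The genes were the caveolins CAV1, CAV2 and CAV3, the cavins CAVIN1 to CAVIN4, the neck ATPase EHD2, and the F-BAR proteins PACSIN2 and PACSIN3, all chosen by name. The table of gene names paired 9 of the 10 with an identifier, out of 14857 identifiers with a symbol among 25880 in all. CAV3, the caveolin of skeletal and cardiac muscle, was paired with none and was not analysed here. The study sequenced RNA from a single clone in duplicate, so there was 1 group of 2 libraries, replicate 1 and replicate 2, without a control, a tissue or a second line. Cells were kept in DMEM with fetal bovine serum and antibiotics. Nothing in the labels ties the duplicates to separate cultures, so the spread between them may be technical. With 1 clone, the values describe that clone and not ileal smooth muscle in general.

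Levels are in FPKM, fragments per kilobase corrected for library size, so genes of different length can be set side by side. The library totals recovered from the steps in the values were 35176565 in replicate 1 and 32217729 in replicate 2. A single read per kilobase therefore equals 0.0284 FPKM in replicate 1 and 0.0310 FPKM in replicate 2. Of the smooth muscle markers, 8 of 9 reached 1 FPKM in both libraries, the exception being MYH11. All 4 measured fibroblast markers did so, where 61.5% of all identifiers with a symbol did. Levels within these sets were uneven. Mean levels ran from 0.491 to 693 FPKM over the smooth muscle markers, with a median of 45.1 FPKM. Over the fibroblast markers they ran from 1.63 to 3608 FPKM, with a median of 2.22 FPKM. The median of all identifiers with a symbol was 3.90 FPKM. PECAM1 alone of 4 measured endothelial markers reached 1 FPKM in both libraries, and CDH5, KDR and TIE1 were listed at 0. None of 5 adipocyte, 5 skeletal and cardiac muscle, 4 epithelial and 2 leukocyte markers reached 1 FPKM, and CDH1, VIL1, MUC2, PTPRC and CD3E among them were listed at 0 in both libraries. A value near 0 needs care in this table, because RPL29, a ribosomal protein gene used in every cell, was listed at 0 in both libraries. In bulk RNA, fewer cells that express a gene and less RNA per cell cannot be told apart.

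The clone expressed most of the measured caveola genes, led by CAVIN1, CAVIN3, CAV1 and EHD2. At 1 FPKM or more in both libraries, 7 of the 9 measured members were detected, or 77.8%, where 61.5% of all identifiers with a symbol were. The remaining members, CAVIN2 and CAVIN4, were near 0. The median of the 9 members was 5.24 on the log2(FPKM + 1) scale, against 2.29 over all identifiers with a symbol. Together they held 0.247% of the summed FPKM in replicate 1 and 0.252% in replicate 2.

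**Figure D1:**
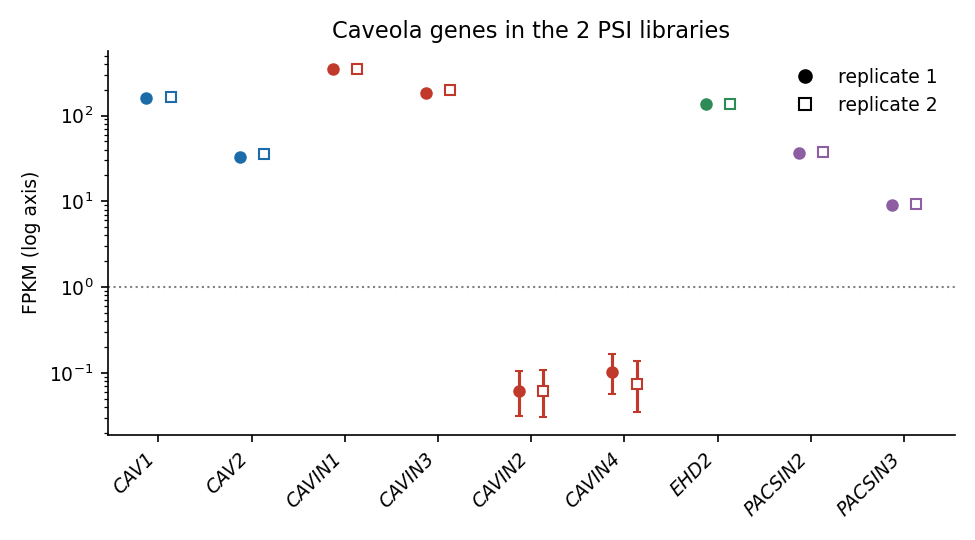
FPKM (log axis) of the 9 measured caveola genes in replicate 1 (filled circles) and replicate 2 (open squares), with exact Poisson 95% intervals of the recovered reads; the dotted line is 1 FPKM. The 7 detected genes lie between 8.998 and 349.6 FPKM with intervals mostly hidden by the symbols, while CAVIN2 and CAVIN4 lie near or below 0.101 FPKM.

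Among the caveolins, CAV1 far exceeded CAV2. CAV1, whose product is the main structural protein of caveolae outside striated muscle, had 162.0 FPKM in replicate 1 and 164.7 FPKM in replicate 2. This gave a mean of 163 ± 1.95 FPKM (SD, n = 2), from 10893 and 10147 recovered reads, and was higher than 98.5% of identifiers with a symbol. CAV2, whose product forms mixed oligomers with caveolin-1 and needs it to reach the cell surface, had 32.9 FPKM in replicate 1 and 35.4 FPKM in replicate 2. Its mean was 34.2 ± 1.77 FPKM (SD, n = 2), from 5667 and 5584 reads. The groups of values did not overlap, and CAV1 stood 4.78 ± 0.190 times above CAV2 per length (SD of the ratio over 2 libraries). CAV1 made up 82.7 ± 0.568% of the summed FPKM of the pair (SD, n = 2). Counted in recovered reads without the length correction, the ratio was 1.92 in replicate 1 and 1.82 in replicate 2. The recovered length of CAV2 was 4893 bp and that of CAV1 1912 bp. Recovered reads and lengths are the smallest that fit, so the ratio of the true reads may be higher or lower.

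CAV1 and CAV2 lie side by side. The RefSeq annotation of Sscrofa11.1 places CAV1 (ENSSSCG00000016634) on chromosome 18 from 29648120 to 29682451 and CAV2 (ENSSSCG00000016635) from 29699012 to 29707277, with 16560 bp between them and no other protein-coding gene in the gap. Both are protein-coding, and RefSeq lists 4 transcripts for CAV1 and 1 for CAV2, which the gene values cannot separate. The nearest protein-coding gene on the other side of CAV1 was MET, the hepatocyte growth factor receptor gene, with 19.2 FPKM in replicate 1 and 19.9 FPKM in replicate 2. Beyond CAV2 came TES, which encodes a LIM protein of focal adhesions, with 20.6 FPKM in replicate 1 and 20.02 FPKM in replicate 2. These 4 protein-coding genes were all detected, where 61.5% of all identifiers with a symbol were, and CAV1 was the highest of them in both libraries. Genes of other types in the stretch were not examined.

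The cavins split into a pair at high levels and a pair near 0. CAVIN1, also called PTRF, whose product is required for caveolae to form, had 349.6 FPKM in replicate 1 and 346.7 FPKM in replicate 2. It was the highest member at 348 ± 2.01 FPKM (SD, n = 2), above 99.3% of identifiers with a symbol. CAVIN3, whose product binds protein kinase C delta, had 185 FPKM in replicate 1 and 197 FPKM in replicate 2, with a mean of 191 ± 8.62 FPKM (SD, n = 2). CAVIN1 exceeded CAVIN3 in both libraries, by 1.82 ± 0.0926 times (SD of the ratio, n = 2). CAVIN1 held 64.5 ± 1.16% of the summed FPKM of the 4 cavins and CAVIN3 held 35.4 ± 1.16% (SD, n = 2).

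CAVIN2, whose product shapes caveolae and is abundant in endothelium and fat, had 0.0606 FPKM in each library, from 12 and 11 reads. Exact Poisson 95% intervals of these reads ran from 0.0313 to 0.106 FPKM in replicate 1 and from 0.0303 to 0.108 FPKM in replicate 2. Counting error was therefore far wider than the difference between the libraries. CAVIN1 stood 5744 ± 36.7 times above it (SD of the ratio, n = 2), where the SD leaves out that error. CAVIN4, the cavin of skeletal and cardiac muscle, had 0.101 FPKM in replicate 1 and 0.0737 FPKM in replicate 2, from 15 and 10 reads. Its intervals, 0.0567 to 0.167 FPKM and 0.0353 to 0.136 FPKM, overlapped those of CAVIN2. MYOD1, MYOG and CKM, which mark skeletal muscle, were listed at 0 in both libraries, whereas ACTA1, the skeletal muscle actin gene, had 0.989 FPKM in replicate 1 and 0.941 FPKM in replicate 2. The adipocyte markers ADIPOQ, LEP and FABP4 were listed at 0 in both libraries. TMEFF1 ends 138 bp before CAVIN4 starts in the RefSeq annotation of chromosome 1 and had 9.50 FPKM in replicate 1 and 9.58 FPKM in replicate 2. Whether its reads contributed to the few counted for CAVIN4 was not tested.

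CAVIN1 (ENSSSCG00000035446) lies on chromosome 12 from 20372476 to 20390250, CAVIN2 (ENSSSCG00000026618) on chromosome 15 from 96476675 to 96490231, and CAVIN3 (ENSSSCG00000014633) on chromosome 9 from 3378144 to 3379851. CAVIN4 (ENSSSCG00000037954) lies on chromosome 1 from 242310017 to 242319977. All 4 are protein-coding. CAVIN1 overlaps the long non-coding RNA gene LOC110256002, and without a known strand setting reads of the pair may have been dropped or mixed, so its level is uncertain. Its recovered length was 833 bp, the shortest of the members, where the other 8 ranged from 1359 bp to 5631 bp. The recovered length is the shortest that gives whole reads and the true one may be a multiple of it. A short gene model raises the FPKM of a given number of reads, and the part this played in the first place of CAVIN1 was not tested.

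EHD2, an ATPase that assembles at the neck of caveolae and holds them at the cell surface, had 134.6 FPKM in replicate 1 and 136.5 FPKM in replicate 2. Its mean was 136 ± 1.33 FPKM (SD, n = 2), from 21286 and 19768 recovered reads. These were the most of any member as recovered, but recovered reads are the smallest that fit, so a member with a longer true gene model could have more. CAV1 stood 1.205 ± 0.00259 times above it per length (SD of the ratio, n = 2), with no overlap of their values. The paralogues EHD1, EHD3 and EHD4, whose products act mainly on endosomes, were lower. EHD1 had 36.0 ± 0.186 FPKM, EHD4 had 35.9 ± 0.317 FPKM and EHD3 had 13.9 ± 0.0518 FPKM (SD, n = 2 each). EHD2 thus held 61.2 ± 0.255% of the summed FPKM of the 4 EHD genes (SD, n = 2). EHD2 (ENSSSCG00000023371) lies on chromosome 6 from 53423489 to 53442007, is protein-coding and overlaps no other RefSeq gene.

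PACSIN2 and PACSIN3 encode F-BAR proteins, curved dimers that bind and bend membrane; PACSIN2 helps to shape caveolae, and PACSIN3 is the muscle-enriched relative. PACSIN2 had 36.1 FPKM in replicate 1 and 37.5 FPKM in replicate 2, a mean of 36.8 ± 0.978 FPKM (SD, n = 2). PACSIN3 had 8.998 FPKM in replicate 1 and 9.28 FPKM in replicate 2, a mean of 9.14 ± 0.197 FPKM (SD, n = 2), from 879 and 830 reads. PACSIN2 was 4.02 ± 0.0203 times higher than PACSIN3 (SD of the ratio, n = 2), and their values did not overlap. PACSIN1, the neuronal relative, had 1 recovered read in each library, at 0.00540 FPKM in replicate 1 and 0.00590 FPKM in replicate 2. PACSIN2 (ENSSSCG00000000036) lies on chromosome 5 from 5853377 to 5985174 and PACSIN3 (ENSSSCG00000013244) on chromosome 2 from 15380297 to 15389893. Both are protein-coding, with 10 RefSeq transcripts for PACSIN2 and 11 for PACSIN3. PACSIN2 overlaps the long non-coding RNA gene LOC110260619, so its level is uncertain in the same way as that of CAVIN1.

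**Figure D2:**
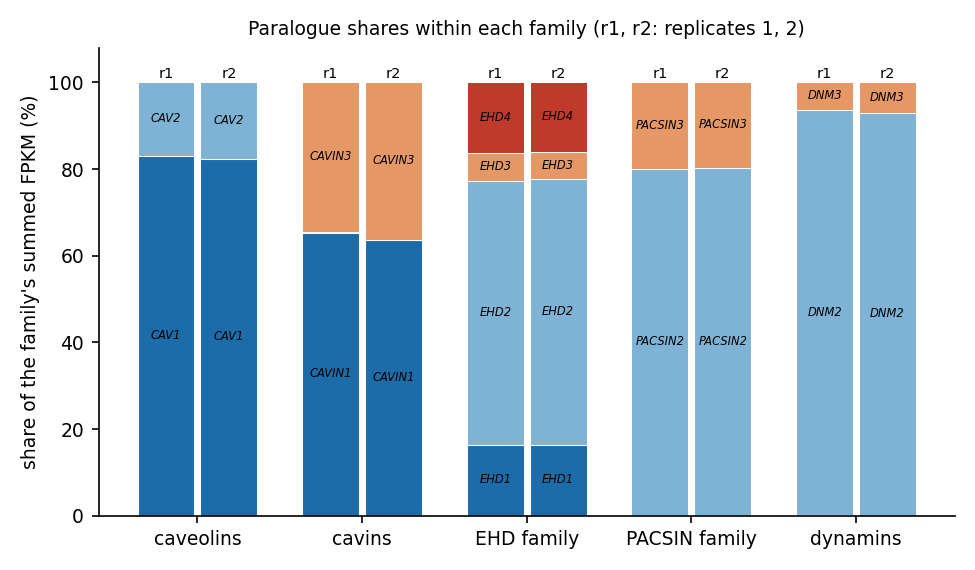
Share (%) of each gene in the summed FPKM of its family, with 1 bar for replicate 1 (r1) and 1 for replicate 2 (r2); genes under 5% carry no label. CAV1, CAVIN1, EHD2, PACSIN2 and DNM2 take most of their families, with 82.7%, 64.5%, 61.2%, 80.1% and 93.2% on average, and the bars of the replicates nearly match.

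Ordered by mean FPKM, the members ran CAVIN1, CAVIN3, CAV1, EHD2, PACSIN2, CAV2, PACSIN3, CAVIN4 and CAVIN2. No pair of neighbours in this order had overlapping values over the 2 libraries. The counting intervals of CAVIN4 and CAVIN2 overlapped in each library, so the order of this pair was not resolved beyond counting error. Those of PACSIN2 and CAV2 were apart in replicate 1, at 34.97 to 37.23 FPKM and 32.07 to 33.79 FPKM. In replicate 2 they overlapped slightly, at 36.28 to 38.69 FPKM for PACSIN2 and 34.50 to 36.36 FPKM for CAV2. The largest step was between PACSIN3 and CAVIN4, which was 104-fold. From CAVIN1 to PACSIN3, the detected members spanned 38.1-fold. By recovered reads, which are not corrected for length, 30 of the 36 pairs of members kept their order and EHD2 came first, ahead of CAV1, CAVIN1 and CAVIN3, under the same limit on recovered reads.

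**Figure D3:**
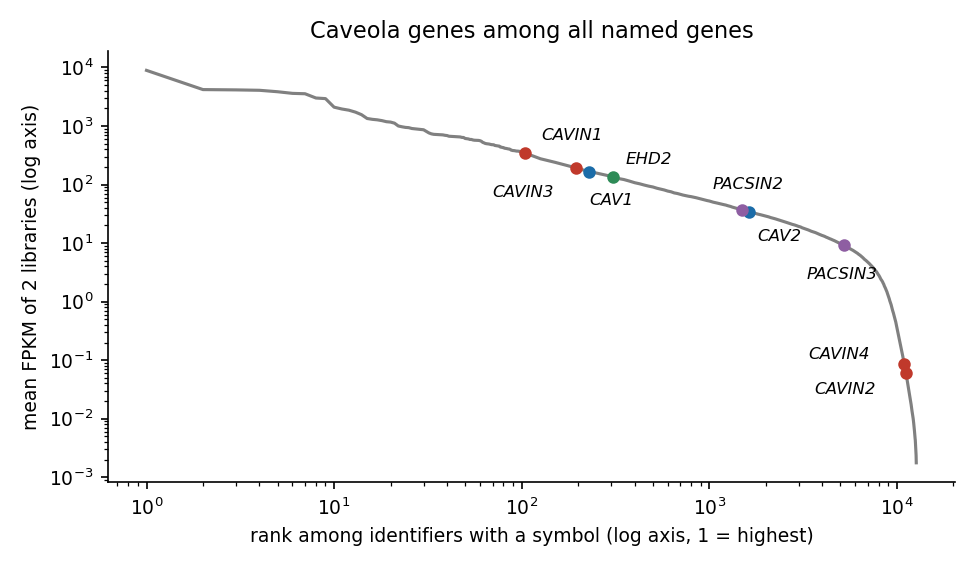
Mean FPKM of 2 libraries (log axis) against rank (log axis) for all identifiers with a symbol above 0 (grey line), with the 9 measured caveola genes as points. CAVIN1, CAVIN3, CAV1 and EHD2 hold ranks 104, 195, 230 and 306, PACSIN2 and CAV2 ranks 1497 and 1636, PACSIN3 rank 5212, and CAVIN4 and CAVIN2 ranks 10931 and 11183.

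The caveola genes at the top shared their level with highly expressed genes of unrelated roles. Directly above CAV1 stood TUBB6, a beta-tubulin gene, at 165 ± 0.731 FPKM, and KPNA2, a nuclear import adaptor gene, at 163 ± 2.85 FPKM (SD, n = 2 each). Directly below it were BANF1, a chromatin-binding protein gene, at 163 ± 5.63 FPKM, and HNRNPK, an RNA-binding protein gene, at 163 ± 1.01 FPKM (SD, n = 2 each). Directly above CAVIN1 stood OAZ1, which encodes antizyme, at 350.1 ± 3.23 FPKM (SD, n = 2). Below it came HMGN2, a nucleosome-binding protein gene, at 346 ± 6.25 FPKM, and RPLP1, a ribosomal protein gene, at 334 ± 4.23 FPKM (SD, n = 2 each). With 2 libraries of 1 group, no likeness of pattern across conditions could be measured.

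The libraries differed beyond counting error at CAV2 and CAVIN3, both lower in replicate 1. An exact binomial test on the recovered reads, with Benjamini-Hochberg adjustment over 16327 genes, called these 2 of the 9 members. The test called 1.11% of all genes, and 0.57% as lower in replicate 1. The log2 ratio of replicate 1 to replicate 2 was -0.11 for CAV2, with a 95% interval from -0.16 to -0.052 and an exact binomial adjusted p of 0.0165. For CAVIN3 it was -0.092, with an interval from -0.13 to -0.049 and an exact binomial adjusted p of 0.00610. Replicate 1 minus replicate 2 amounted to -7.31% of the mean level for CAV2 and -6.37% for CAVIN3.

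Of the other members, CAV1, CAVIN1, EHD2, PACSIN2 and PACSIN3 had log2 ratios between -0.054 for PACSIN2 and 0.012 for CAVIN1, and each interval included 0. Deeply counted genes were called more often: among 2374 genes with 5000 to 50000 reads over both libraries, a range chosen after the values were seen, 80 or 3.37% were called, and 6 members fell in that range. The mean squared deviation from counting error was 1.75 over all genes and 2.50 in that range, where counting alone gives 1. The test sets one library against the other and compares no condition.

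**Figure D4:**
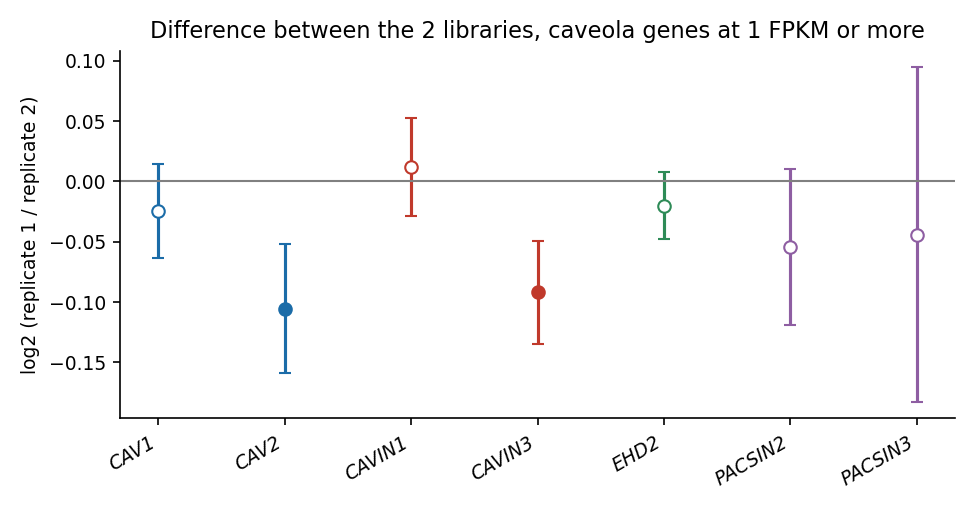
Log2 ratio of replicate 1 to replicate 2 for the 7 caveola genes at 1 FPKM or more, with exact (Clopper-Pearson) 95% binomial intervals; filled points have an adjusted p under 0.05. CAV2 at -0.11 and CAVIN3 at -0.092 lie below 0 with their whole interval, and the other 5 intervals include 0.

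Genes that act on caveolae, or are relatives of the members, ranged from FLNA, among the most abundant transcripts, to PACSIN1 with single reads. Of 24 such partner genes, 19 or 79.2% reached 1 FPKM in both libraries, beside 61.5% of all identifiers with a symbol, with a median of 4.32 on the log2(FPKM + 1) scale. The highest were FLNA, whose product filamin A links caveolae to actin, at 868 ± 6.66 FPKM, and VCP, an ATPase that helps to degrade caveolin-1, at 173 ± 1.70 FPKM (SD, n = 2 each). DNM2, the widely expressed dynamin that cuts membrane necks, had 49.9 ± 0.474 FPKM, and ABL1, a kinase that controls the stress fibres tied to caveolae, had 41.5 ± 0.433 FPKM (SD, n = 2 each). DNM2 held 93.2 ± 0.436% of the summed FPKM of the 3 dynamin genes (SD, n = 2). The kinases that phosphorylate caveolin-1 were present, with FYN at 41.0 ± 1.08 FPKM, YES1 at 34.0 ± 1.55 FPKM and SRC at 18.0 ± 0.215 FPKM (SD, n = 2 each).

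The flotillins, scaffold proteins of other membrane domains, were present at lower levels than CAV1. FLOT2 had 19.96 ± 0.144 FPKM and FLOT1 had 8.75 ± 0.192 FPKM (SD, n = 2 each). The 5 partner genes that did not reach 1 FPKM in both libraries were DNM1, ROR1, NOSTRIN, NOS3 and PACSIN1. ROR1, a receptor that stabilises the caveolin and cavin assembly in human lung cancer cells, had 1.13 FPKM in replicate 1 and 0.943 FPKM in replicate 2. NOS3, the endothelial nitric oxide synthase that caveolin-1 binds, had 0.0285 FPKM in replicate 1 and 0.00519 FPKM in replicate 2. NOSTRIN, whose product traffics that enzyme, had 1 read in replicate 1 and was listed at 0 in replicate 2.

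Other genes whose products bend membranes, at the cell surface or inside the cell, encode BAR domain proteins and parts of the clathrin coat. Of 27 measured BAR domain genes outside the caveola set, 18 or 66.7% reached 1 FPKM in both libraries, a share near the 61.5% of all identifiers with a symbol, with a median of 2.90 on the log2(FPKM + 1) scale. The highest were the endophilin-B genes SH3GLB1, at 71.1 ± 1.33 FPKM, and SH3GLB2, at 31.8 ± 0.898 FPKM, and the sorting nexin genes SNX9, at 61.7 ± 0.777 FPKM, and SNX18, at 30.4 ± 0.954 FPKM (SD, n = 2 each). All 13 measured clathrin coat genes reached 1 FPKM in both libraries, where 61.5% of all identifiers with a symbol did, with a median of 5.51. AP2M1, a subunit of the plasma membrane adaptor, had 152 ± 2.98 FPKM, and EPN1, which encodes the curvature protein epsin, had 106 ± 0.692 FPKM (SD, n = 2 each). CLTC, the clathrin heavy chain gene, had 75.6 ± 0.266 FPKM and CLTA, a light chain gene, had 60.2 ± 1.204 FPKM (SD, n = 2 each). CAV1 was higher than AP2M1, the highest coat gene, in both libraries: CAV1 had 162.0 and 164.7 FPKM and AP2M1 had 150.2 and 154.4 FPKM. These counts and medians describe the lists, and no test was made between them.

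**Figure D5:**
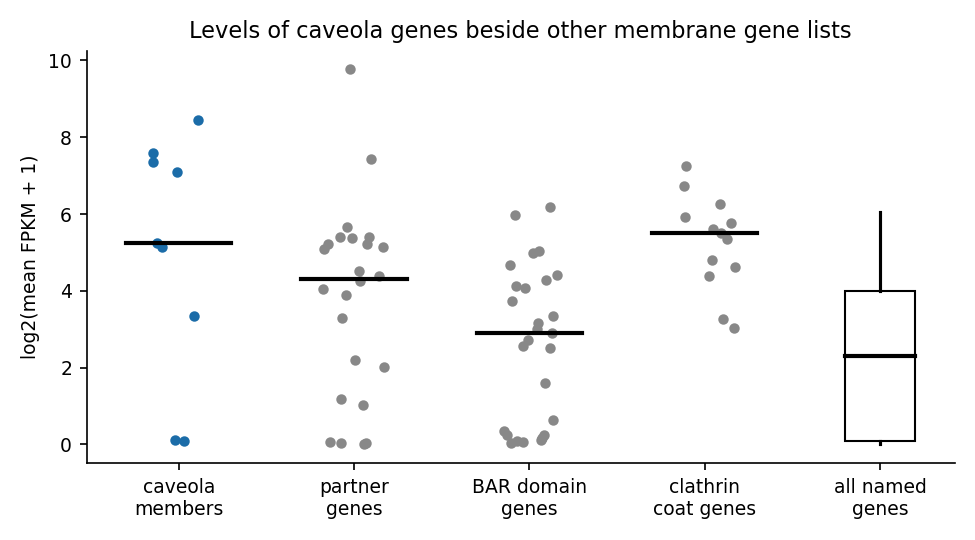
Mean level of each gene on the log2(FPKM + 1) scale for the caveola members, the partner genes, other BAR domain genes and the clathrin coat genes, with a line at each median; the box gives the quartiles and the whiskers the range from percentile 5 to 95 of all identifiers with a symbol. The caveola median is 5.24, against 4.32, 2.90 and 5.51 for the other lists and 2.29 for all named genes.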

How the data were processed

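RNA-seq libraries were made from total RNA with the NEBNext Ultra kit, per the labels' protocols. The submitters' processing notes name TopHat2 2.0.12, HTSeq 0.6.1 and the build Sscrofa11.1; annotation release, strand setting and filters are stated neither there nor in the labels. The authors deposited 1 FPKM column per library. Symbols came from a gene name table and coordinates from RefSeq, both joined by symbol.

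Reads per gene were recovered at the shortest length, between 50 and 30000 bp, under which both FPKM values give whole numbers, within 1.2 times the rounding. This worked for 100.0% of 16327 genes above 0 and recovered 90.8% of each library total. Recovered reads and lengths are thus lower limits, of which the true values may be multiples. Intervals cover counting error alone, since reads that carry no molecular identifier cannot be counted as separate molecules. The recovery and the two-sided exact binomial test were tested on simulated data, where some genes received fewer reads than their true number. The simulated reads varied by counting error alone, whereas these libraries spread more widely. The simulation therefore cannot show how often the test calls unchanged genes here. Python 3.11.15, NumPy 2.4.6, SciPy 1.17.1, pandas 2.3.3 and matplotlib 3.10.9 were used.

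Members and lists were chosen with earlier results of these data known. Named genes were all members, the 4 highest of the partner, BAR domain and clathrin lists, any listed at 0 in both libraries, and the 2 genes above and below CAV1 and CAVIN1 in level, of which 1 is not reported here; marker lists are otherwise summarised, and the other relatives, kinases, flotillins and chromosomal neighbours were named with their values already seen. The alternatives varied the detection level, pseudocount, scaling, test input and library used. Protein sequences were not used here.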

Additional observations from a re-analysis of the deposited data

How the results depend on the processing

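Of 90 alternative values for 31 results, 80 stayed within the spread between libraries, within 1.5 times the count or on the same side of the test's threshold. Levels and ratios without 1 library could not leave that spread, because each of 2 values lies within 1 SD of their mean. That part of the count was fixed in advance. Only CAVIN2 changed direction between settings in its difference between libraries. Its log2 ratio of replicate 1 to replicate 2 was -0.0012 with the recovered totals and 0.0029 with the median ratio of genes. By recovered reads, 6 of the 36 pairs of members changed order. Among them was CAV1 over EHD2, whose ratio was 1.205 per length and 0.512 and 0.513 in recovered reads. Recovered reads are the smallest that fit, so the order by true reads may differ. Levels moved when each column was rescaled to TPM, which multiplies every gene alike and kept the same 7 members detected. They were then 443.7 for CAV1, 92.8 for CAV2, 945.6 for CAVIN1, 0.165 for CAVIN2, 519.6 for CAVIN3, 0.238 for CAVIN4, 368.2 for EHD2, 99.9 for PACSIN2 and 24.8 for PACSIN3. Scaling replicate 2 by the median ratio of genes gave CAVIN2 0.0605 FPKM, outside the very small spread of its 2 values. The calls of CAV2 and CAVIN3 between libraries held with the median ratio (exact binomial adjusted p 0.0260 and 0.0107) and among genes of 10 or more reads (exact binomial adjusted p 0.0133 and 0.00493). Both settings reuse the same reads and the same test, so they cannot address spread beyond counting error. No paired analysis was possible because the design has 1 group. Depth limits CAVIN2 and CAVIN4, whose values rest on 23 and 25 reads over both libraries.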

Other observations

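The protein-coding genes nearest to the members on either side ranged widely in level. CAVIN1 lies before STAT3, a transcription factor gene at 29.4 ± 0.383 FPKM (SD, n = 2), and after ATP6V0A1, a proton pump subunit gene at 4.97 ± 0.467 FPKM (SD, n = 2). EHD2 lies 1445 bp before NOP53, a ribosome assembly gene at 70.7 ± 3.61 FPKM (SD, n = 2). PACSIN2 lies before ARFGAP3, at 42.2 ± 0.0831 FPKM, and PACSIN3 before ARFGAP2, at 26.1 ± 1.24 FPKM (SD, n = 2 each), a pair of related genes for regulators of vesicle transport. CAVIN2 stands between NABP1, at 6.18 ± 0.486 FPKM (SD, n = 2), and TMEFF2, at 0.0157 FPKM in replicate 1 and 0.0514 FPKM in replicate 2. Near CAV3, whose own value was not analysed here, the oxytocin receptor gene OXTR had 4.83 ± 0.114 FPKM (SD, n = 2).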
